A study of Mus musculus with 9 samples.

Results

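The 44 genes described here encode the machinery of DNA replication and mitosis. They were chosen by symbol as genes of S phase and of cell division, and all 44 were found among the 54347 genes of the table. Of the 13082 genes with enough counts to be tested, 44 were these members. Their expression was compared across 3 mouse myeloid cell lines with 3 RNA-seq libraries each.

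Hox-WT was a progenitor line made from lineage-negative c-Kit+ bone marrow of a wild-type mouse, immortalized with a fusion of Hoxb8 and the estrogen receptor. Hox-URE was made in the same way from a mouse with the UREd/d genotype, which lacks the upstream regulatory element (URE) that drives *Spi1*, the locus encoding PU.1. URE-AML (B22 in the labels) was grown out from blasts of a URE-deleted mouse with acute myeloid leukemia. The authors list Hox-WT as a line from an earlier publication, and Hox-URE and URE-AML as their own lines, first published with these data. All 3 lines were kept in medium with serum, SCF, IL-3, IL-6 and ß-estradiol, so URE-AML received the hormone as well. Each genotype and stage was 1 line from 1 mouse, so genotype, line and culture history cannot be told apart. Nothing in the labels says that the libraries came from separate cultures, so p-values measure the spread between libraries, which may be technical.

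A dividing cell first loads the MCM2-7 helicase onto replication origins with Cdc6 and Cdt1, then fires the origins with Cdc45 and GINS and copies its DNA with the polymerases and the PCNA clamp. In mitosis, cyclin B with Cdk1 and the Polo and Aurora kinases condense and align the chromosomes, and the anaphase-promoting complex then degrades cyclin B and ends the division. E2F factors drive the first set of genes around the G1/S transition, and B-Myb with FoxM1 and the DREAM and MuvB complexes time the second set towards G2/M. The members were accordingly grouped into 24 G1/S genes and 20 G2/M genes. A progenitor line in culture is a cycling population, so all of these genes are ordinarily expressed in it.

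Promoter sequences are shown because these timing factors act through short promoter elements. Any relation between these elements and the levels given below was not tested. Each run gives the 250 bases upstream of the RefSeq start on GRCm38.p6, 5′ to 3′ on the strand of the gene. Capitals mark a CCAAT box (or its reverse complement ATTGG), the cell-cycle genes homology region TTTGAA (or TTCAAA) and the E2F forms TTTGGCGC, TTTCGCGC, TTTCCCGC and TTTGCCGC on either strand. The runs lie at chr1:128359706-128359955 for *Mcm6*, chr7:38107491-38107740 for *Ccne1*, chr11:99024190-99024439 for *Top2a*, chr2:164769679-164769928 for *Ube2c*, chr9:70421555-70421804 for *Ccnb2* and chr13:100786487-100786736 for *Ccnb1*. *Ube2c* is on the plus strand and the other 5 are on the minus strand. These promoters were picked after their motifs and values had been seen.
Mcm6: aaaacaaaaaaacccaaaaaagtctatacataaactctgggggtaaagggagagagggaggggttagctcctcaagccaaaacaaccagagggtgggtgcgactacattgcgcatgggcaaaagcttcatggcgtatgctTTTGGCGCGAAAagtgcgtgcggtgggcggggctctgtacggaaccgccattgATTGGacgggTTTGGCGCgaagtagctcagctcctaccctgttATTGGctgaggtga
Ccne1: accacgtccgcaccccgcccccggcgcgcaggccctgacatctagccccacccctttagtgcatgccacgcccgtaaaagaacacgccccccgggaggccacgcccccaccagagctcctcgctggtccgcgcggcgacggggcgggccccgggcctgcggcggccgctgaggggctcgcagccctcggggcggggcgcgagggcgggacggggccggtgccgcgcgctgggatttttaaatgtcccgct
Top2a: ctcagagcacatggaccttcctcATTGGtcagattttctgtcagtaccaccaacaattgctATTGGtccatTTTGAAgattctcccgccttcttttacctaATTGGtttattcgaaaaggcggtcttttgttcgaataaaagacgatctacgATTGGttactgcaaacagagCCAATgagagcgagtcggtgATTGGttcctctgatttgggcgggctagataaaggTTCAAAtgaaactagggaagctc
Ube2c: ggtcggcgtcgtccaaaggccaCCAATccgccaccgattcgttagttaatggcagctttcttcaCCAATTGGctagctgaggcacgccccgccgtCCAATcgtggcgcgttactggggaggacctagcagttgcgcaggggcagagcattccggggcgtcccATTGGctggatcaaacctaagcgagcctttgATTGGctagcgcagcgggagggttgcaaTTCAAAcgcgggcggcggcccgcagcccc
Ccnb2: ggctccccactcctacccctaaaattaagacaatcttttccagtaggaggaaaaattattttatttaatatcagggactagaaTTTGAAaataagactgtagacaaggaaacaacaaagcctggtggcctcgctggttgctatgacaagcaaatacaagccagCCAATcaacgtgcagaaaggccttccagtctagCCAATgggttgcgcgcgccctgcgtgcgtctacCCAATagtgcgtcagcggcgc
Ccnb1: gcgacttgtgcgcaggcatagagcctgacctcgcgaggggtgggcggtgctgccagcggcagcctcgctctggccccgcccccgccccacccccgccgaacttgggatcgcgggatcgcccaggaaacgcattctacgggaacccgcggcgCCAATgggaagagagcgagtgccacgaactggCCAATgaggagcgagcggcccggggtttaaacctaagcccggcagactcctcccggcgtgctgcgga
*Mcm6*, a helicase subunit, had 3 E2F matches, 2 of which overlap, and 2 CCAAT boxes. *Ccne1*, cyclin E1, had no match to any of the motifs. *Top2a*, topoisomerase II alpha, and *Ube2c*, the ubiquitin-conjugating enzyme of the anaphase-promoting complex, held 6 CCAAT boxes each, with 2 and 1 homology regions. *Ccnb2* had 3 CCAAT boxes and *Ccnb1*, the sister cyclin, had 2. The form TTTGAA of the homology region was found for *Ccnb2* but not for *Ccnb1*, and other forms were not searched.

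Over windows from 250 bases before to 50 after the start, RefSeq promoters were found for 34 members, 35 promoters in all, since *Mcm7* had 2. A CCAAT box stood in 13 of 20 G1/S promoters (65.0%) and in 14 of 15 G2/M promoters (93.3%), and in 37.4% of all 32851 promoters of the same length. The homology region stood in 2 of 20 G1/S promoters (10.0%), in 11 of 15 G2/M promoters (73.3%) and in 17.9% of all. An E2F form stood in 7 of 20 G1/S promoters (35.0%), in 1 of 15 G2/M promoters (6.67%, that of *Cdk1*) and in 2.26% of all. A match is a description of the letters and not a binding site. Other forms of these elements were not searched, so a promoter with no match may still hold one.

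**Figure D1:**
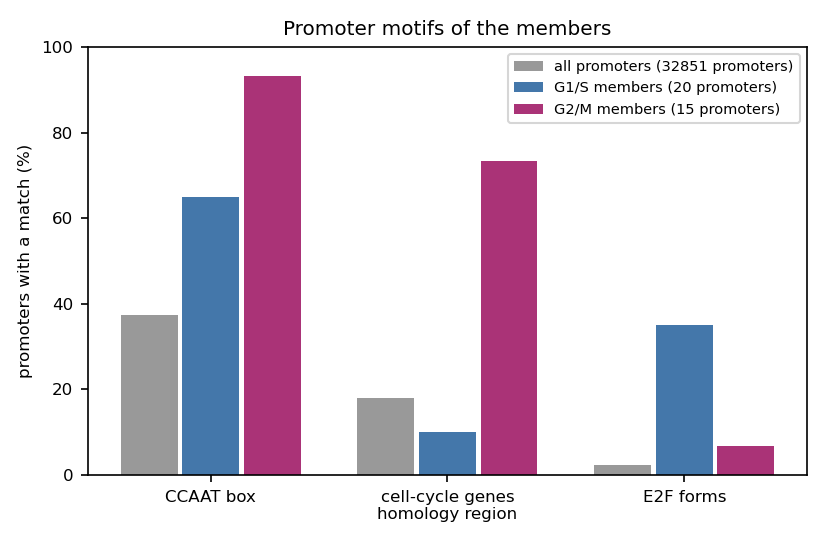
Percent of promoters (y axis) with a match to the CCAAT box, the cell-cycle genes homology region or an E2F form (x axis), for all 32851 promoters, 20 promoters of G1/S members and 15 of G2/M members. The homology region is in 73.3% of G2/M promoters against 10.0% of G1/S promoters, and the E2F forms are in 6.67% against 35.0%.

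Library totals were 20331064 to 28588718 counts, and values are given as CPM (counts per 1000000), scaled by library total and by a TMM factor of 0.938 to 1.04. Every member was well covered, with at least 362 counts in every library and line means of 19.9 to 861 CPM. The median coefficient of variation of the members between libraries was 5.69% for Hox-WT, 8.05% for Hox-URE and 6.31% for URE-AML. Hox-URE library 1 stood apart, since it lay below both other Hox-URE libraries in 29 of the 44 members and in 15 of the 20 G2/M members, and calls on members that it decided are given without it as well. *Spi1* was at 96.5 to 110 CPM in Hox-WT, at most 0.0414 CPM in Hox-URE and 2.504 to 6.35 CPM in URE-AML. The progenitor marker *Kit* was present in all lines (162 to 192, 35.5 to 50.7 and 92.8 to 99.7 CPM), whereas *Flt3* and *Hoxb8* had 0 counts and *Cd34* had 1 count in URE-AML. Counts of 0 allow up to 0.121 to 0.143 CPM per URE-AML library, and these limits cover counting error only.

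Together the G1/S members took 5866 to 6249 CPM in Hox-WT, 4431 to 4702 CPM in Hox-URE and 4238 to 4690 CPM in URE-AML, so both URE-deleted lines lay below every Hox-WT library. The G2/M members took 2648 to 2839 CPM in Hox-WT, 2274 to 2766 CPM in Hox-URE and 3538 to 3817 CPM in URE-AML. Here the Hox-URE and Hox-WT libraries overlapped and all URE-AML libraries were higher. Within each library, the mean log2 CPM of the G2/M members minus that of the G1/S members was -0.43 to -0.36 for Hox-WT, -0.31 to -0.07 for Hox-URE and 0.16 to 0.31 for URE-AML. These 3 ranges did not overlap, also with Hox-URE library 1 left out (-0.09 and -0.07 in libraries 2 and 3), and no test was made of such means over members. In bulk libraries a larger share of cells in a phase and more RNA per cell in that phase cannot be told apart.

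**Figure D2:**
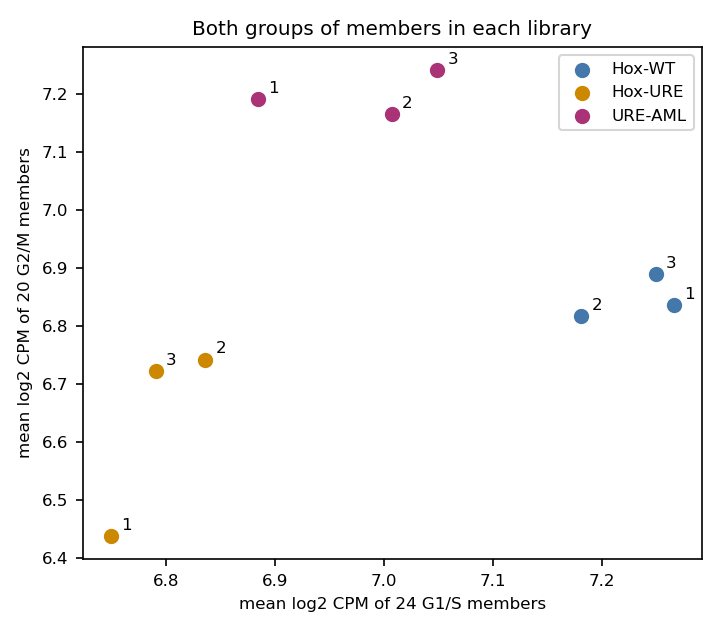
Mean log2 CPM of the 24 G1/S members (x axis) against that of the 20 G2/M members (y axis), with 1 point per library, numbered by library. Hox-WT libraries lie to the right, Hox-URE libraries lie low on both axes with library 1 lowest, and URE-AML libraries lie highest on the G2/M axis (7.17 to 7.24).

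The first comparison asked how the replication and division genes of preleukemic Hox-URE cells differed from those of Hox-WT. A call required a fold change over 1.5 together with p under 0.05 in edgeR's quasi-likelihood test after Benjamini-Hochberg adjustment over all genes tested. By that rule 12 of the 44 members were lower in Hox-URE (27.3%) and 1 was higher (2.27%), while 15.9% of all genes tested were called lower and 21.3% higher. The median log2 fold change of the members was -0.38, against 0.00 for all genes tested. Of the 24 G1/S members 9 were lower and 0 higher, with a median of -0.50, and of the 20 G2/M members 3 were lower and 1 was higher, with a median of -0.22. By adjusted p alone, 26 members were lower and 3 higher, beside 25.2% and 27.8% of all genes. All 3 Hox-URE libraries lay below all 3 Hox-WT libraries for 28 members and above them for 3, beside 29.4% and 30.9% of all genes. Without Hox-URE library 1, 11 members were called lower and 1 higher, and the G2/M median was -0.11.

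The second comparison set the leukemic line against Hox-WT. In URE-AML 8 members were lower (18.2%) and 7 were higher (15.9%), beside 20.2% and 23.0% of all genes tested, so the shares over all members were near those of the background. The median log2 fold change was 0.01, against 0.00 for all genes, and it lay between -0.04 and 0.06 when each library was left out. Of the G1/S members 8 were lower and 1 was higher, with a median of -0.34. Of the G2/M members 0 were lower and 6 were higher, with a median of 0.33. By adjusted p alone, 15 members were lower and 16 higher, beside 27.8% and 29.9% of all genes. The libraries did not overlap for 17 lower and 19 higher members, beside 33.2% and 34.4% of all genes.

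The third comparison set the leukemic against the preleukemic line of the same URE deletion. In URE-AML 15 members were higher (34.1%) and 2 were lower (4.55%), beside 20.3% and 22.4% of all genes tested, with a median log2 fold change of 0.44 against 0.00. Of the G2/M members 11 were higher and 1 was lower, with a median of 0.63, and of the G1/S members 4 were higher and 1 was lower, with a median of 0.15. By adjusted p alone, 26 members were higher and 5 lower, beside 28.9% and 29.1% of all genes. The libraries did not overlap for 28 higher and 5 lower members, beside 31.8% and 31.1% of all genes. Without Hox-URE library 1, 13 members were called higher and 2 lower, and the G1/S median was 0.08. Without URE-AML library 3 that median was 0.07. The 3 comparisons share libraries, and their values stand side by side below as separate results.

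**Figure D3:**
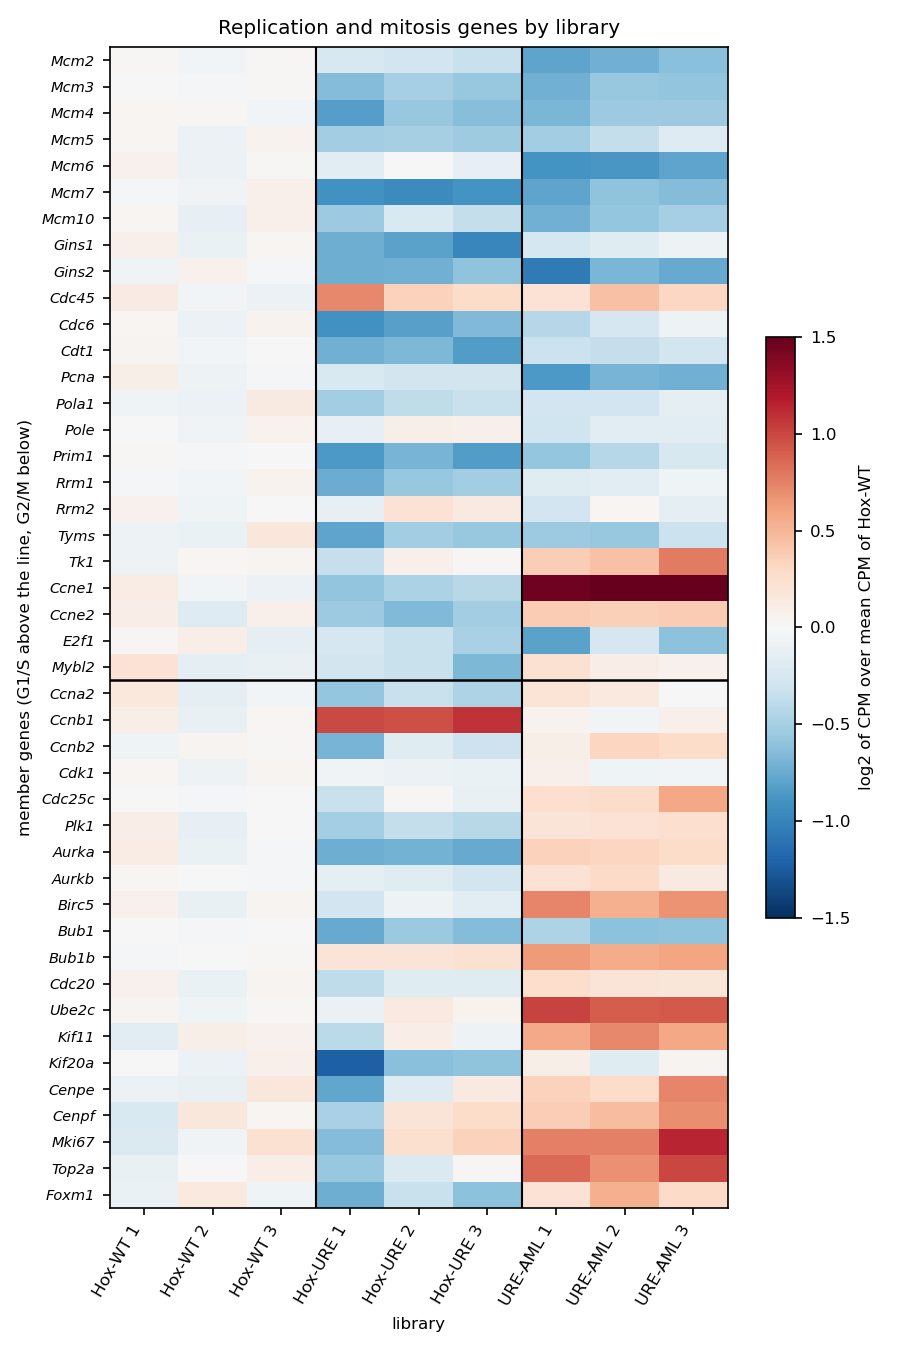
Log2 of the CPM of each of the 44 members (rows) in each of the 9 libraries (columns) over the mean CPM of Hox-WT, in red where higher and in blue where lower. Most G1/S rows are blue in both URE-deleted lines, with *Cdc45* red in both and *Tk1*, *Ccne1* and *Ccne2* red in URE-AML, *Ccnb1* is red in Hox-URE, and most G2/M rows are red in URE-AML.

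Markers of other cell types moved with the lines. Summed CPM of 8 mature neutrophil markers was 19.1 to 34.1 for Hox-WT, 118 to 184 for Hox-URE and 1507 to 5319 for URE-AML, all 8 of them with counts in URE-AML and *Ltf* at 0 in Hox-URE. The Hox-URE sum was mostly *Lcn2* (110.0 to 174 CPM), while *Ngp* was at 3.52 to 15.8 CPM in Hox-WT and at most 0.102 CPM in Hox-URE. The URE-AML sum was mostly *Ngp* (630 to 4042 CPM), *Camp* (473 to 954 CPM) and *Lcn2* (263 to 363 CPM). *Mmp8* and *Mmp9* in URE-AML overlapped Hox-WT, at most 1.90 and 0.283 CPM. Summed CPM of 6 basophil and mast cell markers was 483 to 838 for Hox-WT, 1613 to 5892 for Hox-URE and 31.4 to 62.7 for URE-AML, with *Fcer1a* at 0 in both Hox lines. *Cpa3* was the largest part of the Hox-URE sum, at 768, 2789 and 4437 CPM in libraries 1 to 3. *Ms4a2* overlapped between the Hox lines, and *Mcpt8* was higher in URE-AML (23.5 to 50.2 CPM) than in Hox-WT (5.40 to 13.3 CPM). The 7 monocyte and macrophage markers summed to 300.2 to 309, 842 to 945 and 16.0 to 29.2 CPM, with *Mrc1* at 0 in both Hox lines, *Csf1r* at 0 in Hox-URE and *Ly86* at 0 in URE-AML. The Hox-URE sum was mostly *Ccr2* (840.3 to 939 CPM), while *Adgre1* was at 269.9 to 279.7 CPM in Hox-WT and 0.219 to 2.66 CPM in Hox-URE. The 7 erythroid markers stayed at or below 18.0 CPM in every library, and the 6 lymphoid markers were at 37.2 to 49.9, 34.5 to 41.2 and at most 0.190 CPM. The 7 progenitor markers summed to 7132 to 10746, 3305 to 5155 and 7581 to 17271 CPM. The URE-AML sum was mostly *Elane* (4290.1 to 10514 CPM) and *Ctsg* (2123 to 5079 CPM), the Hox-URE sum mostly *Ctsg* (2483 to 3860 CPM), and *Mpo* was at 3292 to 5950, 2.15 to 10.2 and 174 to 212 CPM in the 3 lines. The part of differentiated cells in the levels of the members was not tested.

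Against Hox-WT, 6 of the 12 origin licensing and helicase genes were lower in Hox-URE and 7 of the 12 (58.3%) were lower in URE-AML, beside 15.9% and 20.2% of all genes tested. None of them was called higher against Hox-WT, with median log2 fold changes of -0.62 and -0.59. *Mcm7*, a subunit of the helicase ring, was at 803, 786 and 860.2 CPM in Hox-WT, 436, 422 and 440.0 CPM in Hox-URE and 471, 536 and 519 CPM in URE-AML. Both URE-deleted lines lay below every Hox-WT library, by 1.89-fold in Hox-URE (log2 fold change -0.92 ± 0.09, SE, edgeR adjusted p = 1.43e-05, n = 3 libraries a line) and by 1.61-fold in URE-AML (-0.68 ± 0.09, edgeR adjusted p = 7.54e-05).

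*Mcm6*, another subunit of the ring, followed another order. It was at 901, 812 and 870.0 CPM in Hox-WT, 765, 858 and 791 CPM in Hox-URE and 461, 469 and 496 CPM in URE-AML. The Hox-WT and Hox-URE libraries overlapped (log2 fold change -0.10 ± 0.09, edgeR adjusted p = 0.377), and URE-AML was below all of them, by 1.81-fold against Hox-WT (-0.86 ± 0.09, edgeR adjusted p = 1.80e-05) and by 1.69-fold against Hox-URE (-0.76 ± 0.09, edgeR adjusted p = 4.53e-05). The ratio of *Mcm6* to *Mcm7* was 1.01 to 1.123 for Hox-WT, 1.76 to 2.03 for Hox-URE and 0.875 to 0.978 for URE-AML. The 3 ranges did not overlap, and the ratio was highest in Hox-URE.

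*Mcm2* in URE-AML was below Hox-WT (-0.71 ± 0.08, edgeR adjusted p = 3.42e-05), with a log2 fold change of -0.29 ± 0.08 in Hox-URE that was under the fold threshold. *Mcm3* stood at -0.57 in Hox-URE, just under that threshold, and at -0.62 in URE-AML, just over it. *Mcm4* stood at -0.67 and -0.59, both called. *Mcm5* stood at -0.52 and -0.35 and was called in neither. All 4 subunits lay below every Hox-WT library in both URE-deleted lines. *Mcm3* in URE-AML was no longer called without URE-AML library 1 (-0.58), and *Mcm4* in URE-AML was no longer called without Hox-WT library 1 (-0.58), Hox-WT library 2 (-0.58) or URE-AML library 1 (-0.55). *Mcm3* in Hox-URE was called without Hox-WT library 2 (-0.59) or Hox-URE library 2 (-0.62).

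Levels were compared between genes per kilobase of exon, with the exons of all annotated transcripts joined, so the order depends on that length and not on the transcripts in use. On this scale *Mcm6* was the highest of the 6 ring subunits in Hox-WT (185 CPM per kb) and in Hox-URE (172 CPM per kb), and *Mcm5* had the highest mean in URE-AML (122 ± 14.0 CPM per kb, SD), where *Mcm7* (115 ± 7.56) did not differ from it beyond their spread. The lowest mean was that of *Mcm2* in Hox-WT (56.4) and URE-AML (34.4) and that of *Mcm4* in Hox-URE (43.9 ± 3.84), where *Mcm2* (46.2 ± 1.51) did not differ from it beyond their spread, so the highest and lowest subunits were 3.27-, 3.54- and 3.93-fold apart in Hox-WT, URE-AML and Hox-URE. *Pcna* had the highest level per kb of all members in Hox-WT (223 CPM per kb), followed by *Mcm6* (184.5) and *Mcm7* (184.4), which did not differ beyond their spread.

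The factors that load the ring were lower in Hox-URE. *Cdt1*, which brings the helicase to the origin, was at 103, 97.1 and 101 CPM in Hox-WT, 61.0, 62.7 and 56.3 CPM in Hox-URE and 79.9, 78.0 and 82.9 CPM in URE-AML. The 3 lines did not overlap, with Hox-URE lowest and URE-AML between (Hox-URE against Hox-WT -0.74 ± 0.08, edgeR adjusted p = 3.18e-05). The value for URE-AML against Hox-WT, -0.32 ± 0.08, was under the fold threshold. *Cdc6*, the partner of *Cdt1*, had log2 fold changes of -0.79 ± 0.11 in Hox-URE (edgeR adjusted p = 0.000202) and -0.25 ± 0.11 in URE-AML (edgeR adjusted p = 0.0787).

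Among the factors that activate the loaded helicase, the GINS subunits *Gins1* and *Gins2* were lower in Hox-URE. *Gins1* was at 38.2, 33.9 and 36.9 CPM in Hox-WT, 21.9, 20.8 and 18.5 CPM in Hox-URE and 30.3, 31.9 and 34.5 CPM in URE-AML, so Hox-URE stood alone below (-0.83 ± 0.10 against Hox-WT, edgeR adjusted p = 0.000101). URE-AML was above Hox-URE for *Gins1* (0.66 ± 0.10, edgeR adjusted p = 0.000372). *Gins2* was lower in both lines against Hox-WT, by -0.69 ± 0.11 and -0.82 ± 0.11 on the log2 scale. Transcripts of *Gins2* share sequence with *Gse1*, a neighbouring gene, so reads could be split between them. *Mcm10* had a log2 fold change of -0.60 ± 0.11 in URE-AML, which was no longer called without Hox-WT library 1 (-0.58), Hox-WT library 3 (-0.57) or URE-AML library 1 (-0.54). *Cdc45*, the last part of the active helicase, stood in the other direction with 0.46 ± 0.13 in Hox-URE and 0.32 ± 0.13 in URE-AML, neither past the fold threshold. Without Hox-URE library 1, which was the highest, the value in Hox-URE was 0.30.

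Of the 4 polymerase and clamp genes, 1 was called lower in each comparison against Hox-WT (beside 15.9% and 20.2% of all genes). *Prim1*, the primase that starts each new strand, was at 68.8, 66.9 and 67.6 CPM in Hox-WT, 37.3, 41.9 and 37.9 CPM in Hox-URE and 45.2, 50.5 and 57.5 CPM in URE-AML. The 3 lines did not overlap for *Prim1* (Hox-URE against Hox-WT -0.80 ± 0.10, edgeR adjusted p = 0.000134; URE-AML against Hox-WT -0.41 ± 0.10, under the fold threshold). *Pola1*, its polymerase alpha partner, had values of -0.41 and -0.24, and *Pole*, which copies the leading strand, had values of 0.02 and -0.20, with no call.

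*Pcna*, the clamp that holds polymerases on DNA, was at 567, 509 and 527 CPM in Hox-WT, 455, 441.5 and 441.0 CPM in Hox-URE and 295, 330 and 325 CPM in URE-AML. The 3 lines did not overlap, and URE-AML was called lower than Hox-WT (-0.76 ± 0.08, edgeR adjusted p = 3.25e-05). *Pcna-ps2*, a processed pseudogene 99.2% identical to *Pcna* over 781 aligned bases, took 46.9, 58.3 and 57.5 CPM in URE-AML and at most 0.562 CPM in any Hox library. With the reads of the copy added to *Pcna*, the log2 fold change was -0.53 (edgeR adjusted p = 0.000442), under the fold threshold. The call on *Pcna* in URE-AML thus depends on whether reads assigned to the copy are counted with the gene. The pseudogene copies of *Mcm7*, *Ccnb1*, *Cdc6*, *Mybl2* and *Rrm2* held at most 2.503 CPM in summed level in any library and changed no call.

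Against Hox-WT, Hox-URE was lower for 2 of the 4 nucleotide supply genes (beside 15.9% of all genes) and URE-AML had 0 calls among them. *Rrm1*, the large subunit of ribonucleotide reductase, was at 579, 566 and 609 CPM in Hox-WT, 349, 395 and 407 CPM in Hox-URE and 516, 523 and 558 CPM in URE-AML. All Hox-URE libraries were lowest (-0.61 ± 0.09, edgeR adjusted p = 0.000293), and without Hox-URE library 1 the value was -0.55, under the fold threshold. *Rrm2*, the small and S-phase-restricted subunit, had 0.08 ± 0.11 in Hox-URE and -0.13 ± 0.11 in URE-AML, so the ratio of *Rrm1* to *Rrm2* was 2.59 to 2.87 for Hox-WT, 1.59 to 1.77 for Hox-URE and 2.40 to 2.94 for URE-AML.

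*Tyms*, thymidylate synthase, had -0.62 ± 0.11 in Hox-URE, which fell under the threshold without Hox-WT library 3 (-0.54) or Hox-URE library 1 (-0.55). A stretch of *Tyms* transcripts of 330 to 361 bases also matched 10 other genes, among them *Reep3*, *Map3k2* and *Wdr59*, at 95% identity or more. *Tk1*, the thymidine kinase of the salvage path, was at 41.0, 44.0 and 44.2 CPM in Hox-WT, 33.8, 45.5 and 43.6 CPM in Hox-URE and 55.9, 58.3 and 74.1 CPM in URE-AML. URE-AML libraries lay above all others for *Tk1*, with a call against Hox-URE (0.62 ± 0.14, edgeR adjusted p = 0.00370) that did not hold without Hox-URE library 1 (0.49) or URE-AML library 3 (0.48).

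**Figure D4:**
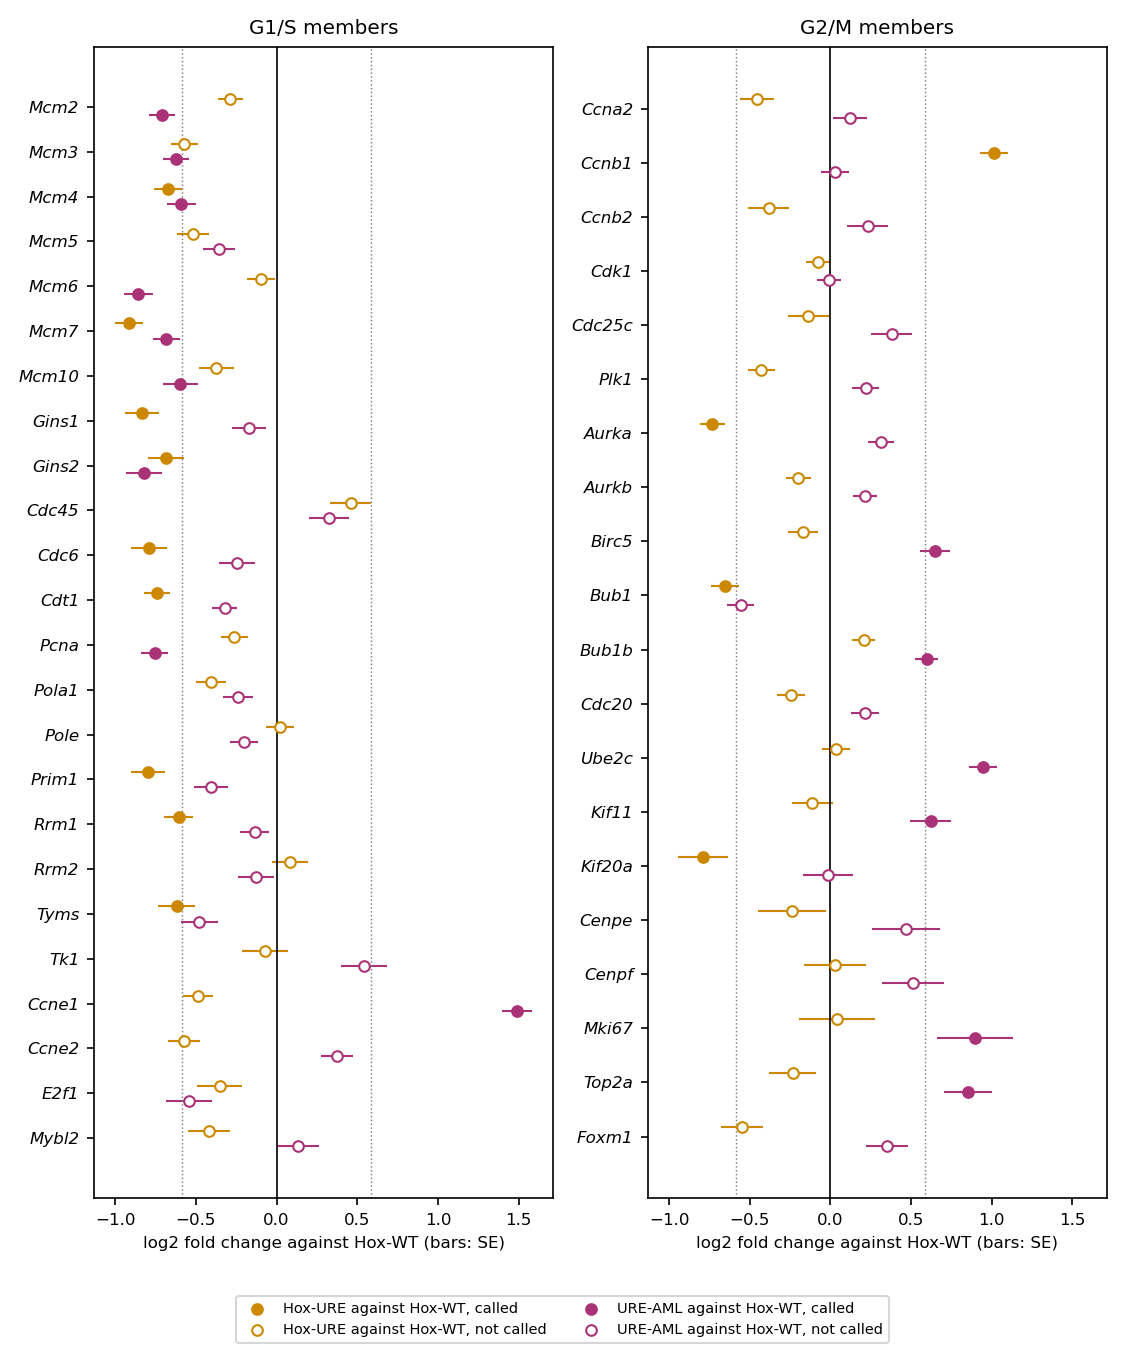
Log2 fold change against Hox-WT (x axis) of each G1/S member (left) and G2/M member (right), with SE as bars, for Hox-URE (orange) and URE-AML (purple). Filled points are called, dotted lines mark a fold change of 1.5, and *Ccne1* in URE-AML (1.49) and *Ccnb1* in Hox-URE (1.02) stand farthest to the right in their panels.

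Cyclin E, which drives the entry into S phase with Cdk2, gave the largest change among the members. *Ccne1* (ENSMUSG00000002068, chromosome 7, 38097984 to 38107534, minus strand, GRCm38) was at 30.3, 27.3 and 26.3 CPM in Hox-WT, 18.6, 20.2 and 21.0 CPM in Hox-URE and 77.0, 79.2 and 79.6 CPM in URE-AML. The lines did not overlap, with URE-AML highest by 2.81-fold against Hox-WT (1.49 ± 0.09, edgeR adjusted p = 4.37e-07) and by 3.95-fold against Hox-URE (1.98 ± 0.10, edgeR adjusted p = 7.91e-08). Hox-URE had -0.49 ± 0.09 against Hox-WT, under the fold threshold.

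*Ccne2*, the sister gene, was at 50.7, 41.6 and 50.1 CPM in Hox-WT, 32.7, 29.96 and 33.0 CPM in Hox-URE and 61.9, 60.7 and 61.7 CPM in URE-AML. The order of the lines was that of *Ccne1*, and URE-AML was called against Hox-URE (0.95 ± 0.10, edgeR adjusted p = 2.30e-05) but had 0.37 ± 0.10 against Hox-WT. Transcripts of *Ccne2* share sequence with the neighbouring *Ints8*. The ratio of *Ccne1* to *Ccne2* was 0.526 to 0.654 for Hox-WT, 0.570 to 0.674 for Hox-URE and 1.24 to 1.30 for URE-AML. *Ccne2* in Hox-URE against Hox-WT stood at -0.58, just under the fold threshold, and was called without Hox-WT library 2 (-0.66), Hox-URE library 1 (-0.60) or Hox-URE library 3 (-0.61).

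Cyclin B, the mitotic partner of Cdk1, gave the single higher call in Hox-URE. *Ccnb1* (ENSMUSG00000041431, chromosome 13, 100778650 to 100786570, minus strand, GRCm38) was at 237.5, 207 and 228 CPM in Hox-WT, 446, 439 and 477 CPM in Hox-URE and 233, 218 and 237 CPM in URE-AML. Hox-URE stood alone above, by 2.02-fold against Hox-WT (1.02 ± 0.09, edgeR adjusted p = 6.88e-06), and URE-AML was 1.98-fold below Hox-URE (-0.99 ± 0.09, edgeR adjusted p = 5.82e-06). The 5 pseudogene copies of *Ccnb1* together held at most 0.497 CPM in any library.

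*Ccnb2*, the sister cyclin, was at 104, 112 and 110.4 CPM in Hox-WT, 67.1, 95.9 and 87.9 CPM in Hox-URE and 116, 136 and 132 CPM in URE-AML. Hox-URE was lowest, opposite to *Ccnb1* (-0.38 ± 0.13 against Hox-WT, under the fold threshold, and -0.25 without Hox-URE library 1), and URE-AML was called against Hox-URE (0.61 ± 0.13, edgeR adjusted p = 0.00206). That call did not hold without Hox-URE library 1 (0.47) or URE-AML library 2 (0.57). The ratio of *Ccnb1* to *Ccnb2* was 1.85 to 2.28 for Hox-WT, 4.58 to 6.64 for Hox-URE and 1.61 to 2.01 for URE-AML.

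*Cdk1*, the kinase itself, was at 132, 123 and 133 CPM in Hox-WT, 125, 122 and 121 CPM in Hox-URE and 136, 124 and 126 CPM in URE-AML. The lines overlapped, with log2 fold changes of -0.08 ± 0.08 for Hox-URE and -0.01 ± 0.08 for URE-AML against Hox-WT. *Ccna2*, cyclin A2, had -0.46 ± 0.11 and 0.12 ± 0.11, and *Cdc25c*, the phosphatase that switches Cdk1 on, had -0.14 ± 0.13 and 0.38 ± 0.13, with no call. Transcripts of *Ccna2* share sequence with the neighbouring *Exosc9*.

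Against Hox-WT, Hox-URE was lower for 2 of the 6 mitotic kinase and checkpoint genes (33.3%, beside 15.9% of all genes) and URE-AML was higher for another 2 (33.3%, beside 23.0%). *Aurka*, the kinase of the spindle poles, was at 108, 93.2 and 98.5 CPM in Hox-WT, 60.2, 61.2 and 59.1 CPM in Hox-URE and 126, 125 and 121 CPM in URE-AML. The 3 lines did not overlap, with Hox-URE lower by 1.66-fold against Hox-WT (-0.73 ± 0.08, edgeR adjusted p = 3.89e-05) and URE-AML higher by 2.06-fold against Hox-URE (1.05 ± 0.08, edgeR adjusted p = 2.21e-06). *Aurkb*, the kinase of the centromere, had smaller values (-0.20 ± 0.08 and 0.21 ± 0.08 against Hox-WT), and the ratio of *Aurka* to *Aurkb* was 0.763 to 0.867 for Hox-WT, 0.544 to 0.585 for Hox-URE and 0.843 to 0.898 for URE-AML.

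*Birc5*, survivin, which sits with Aurkb at the centromere, was at 82.0, 72.3 and 80.9 CPM in Hox-WT, 64.5, 74.3 and 70.4 CPM in Hox-URE and 130.5, 113.5 and 125 CPM in URE-AML. Only the URE-AML libraries stood apart, above all others (0.65 ± 0.09 against Hox-WT, edgeR adjusted p = 0.000181; 0.82 ± 0.09 against Hox-URE, edgeR adjusted p = 3.97e-05). *Plk1*, Polo-like kinase 1, was called when URE-AML was set against Hox-URE (0.65 ± 0.08, edgeR adjusted p = 9.97e-05), with -0.43 ± 0.08 and 0.22 ± 0.08 against Hox-WT.

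The spindle checkpoint kinases *Bub1* and *Bub1b* differed in direction. *Bub1* was at 83.5, 81.9 and 83.4 CPM in Hox-WT, 49.2, 56.2 and 52.9 CPM in Hox-URE and 60.3, 54.2 and 54.7 CPM in URE-AML. Both URE-deleted lines were below Hox-WT, called in Hox-URE (-0.65 ± 0.09, edgeR adjusted p = 0.000140) and just under the fold threshold in URE-AML (-0.56 ± 0.09), where the value without URE-AML library 1 was -0.61 and called. *Bub1b* was at 154, 156 and 159 CPM in Hox-WT, 179.2, 178.9 and 183 CPM in Hox-URE and 244.5, 229.5 and 236.5 CPM in URE-AML. Its lines did not overlap and URE-AML was highest (0.60 ± 0.07 against Hox-WT, edgeR adjusted p = 4.73e-05), a call that did not hold without URE-AML library 1 (0.58).

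Of the 2 genes of mitotic exit, *Ube2c* was called higher in URE-AML in both comparisons (beside 23.0% of all genes against Hox-WT and 20.3% against Hox-URE) and *Cdc20* in neither. *Ube2c* was at 103, 95.3 and 102 CPM in Hox-WT, 93.2, 110.4 and 104 CPM in Hox-URE and 201, 188 and 189 CPM in URE-AML. The Hox lines overlapped each other and URE-AML was higher by 1.93-fold against Hox-WT (0.95 ± 0.09, edgeR adjusted p = 6.91e-06) and by 1.88-fold against Hox-URE (0.91 ± 0.09, edgeR adjusted p = 1.02e-05). *Cdc20*, which activates the anaphase-promoting complex, had 0.21 ± 0.09 in URE-AML and -0.24 ± 0.09 in Hox-URE against Hox-WT.

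Of the 4 motor and kinetochore genes, 1 was higher in URE-AML against Hox-WT (beside 23.0% of all genes), and 3 were higher against Hox-URE (beside 20.3%). *Kif11*, the motor that pushes the spindle poles apart, was at 73.4, 87.0 and 85.8 CPM in Hox-WT, 62.2, 87.8 and 78.0 CPM in Hox-URE and 122, 135 and 122 CPM in URE-AML. URE-AML lay above all other libraries (0.62 ± 0.13 against Hox-WT, edgeR adjusted p = 0.00186), and the value was under the fold threshold without Hox-WT library 1 (0.55) or URE-AML library 2 (0.57). Against Hox-URE the log2 fold change of *Kif11* was 0.73 ± 0.13 (edgeR adjusted p = 0.000681).

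*Kif20a*, a motor of cytokinesis, was at 132.5, 124 and 139 CPM in Hox-WT, 56.2, 85.6 and 86.6 CPM in Hox-URE and 139.7, 116 and 135 CPM in URE-AML. Hox-URE alone lay below the others, with library 1 far below its own line (-0.79 ± 0.16 against Hox-WT, edgeR adjusted p = 0.00174). Without that library the call held, at -0.62. Transcripts of *Kif20a* share sequence with the neighbouring *Cdc23*. *Cenpe*, a kinetochore motor, was called with URE-AML above Hox-URE (0.70 ± 0.21, edgeR adjusted p = 0.0155), but not without Hox-URE library 1 (0.49) or URE-AML library 3 (0.55). *Cenpf*, a kinetochore protein, had 0.03 ± 0.19 for Hox-URE and 0.51 ± 0.19 for URE-AML against Hox-WT, the latter called only without Hox-WT library 2 (0.60) among the fits that left out a library.

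Both genes of chromosome structure, *Top2a* and *Mki67*, were called higher in URE-AML in both comparisons (beside 23.0% of all genes against Hox-WT and 20.3% against Hox-URE). *Top2a* (ENSMUSG00000020914, chromosome 11, 98992943 to 99024189, minus strand, GRCm38) was at 266, 288 and 310 CPM in Hox-WT, 194, 248 and 293 CPM in Hox-URE and 521, 464 and 577 CPM in URE-AML. The Hox lines overlapped and URE-AML was above both, by 1.81-fold against Hox-WT (0.85 ± 0.15, edgeR adjusted p = 0.000647) and by 2.13-fold against Hox-URE (1.09 ± 0.15, edgeR adjusted p = 0.000137). The ratio of *Top2a* to *Mcm6* was 0.295 to 0.356 for Hox-WT, 0.253 to 0.370 for Hox-URE and 0.990 to 1.16 for URE-AML.

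*Mki67*, the gene of the proliferation antigen Ki-67, which coats mitotic chromosomes, had the widest standard error of all members. It was at 237, 264 and 322 CPM in Hox-WT, 174, 324 and 348 CPM in Hox-URE and 464, 463 and 604 CPM in URE-AML. Hox-WT and Hox-URE overlapped (0.04 ± 0.24, edgeR adjusted p = 0.908), the value without Hox-URE library 1 was 0.29, and URE-AML was above all other libraries (0.90 ± 0.24 against Hox-WT, edgeR adjusted p = 0.00823; 0.86 ± 0.24 against Hox-URE, edgeR adjusted p = 0.0104).

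**Figure D5:**
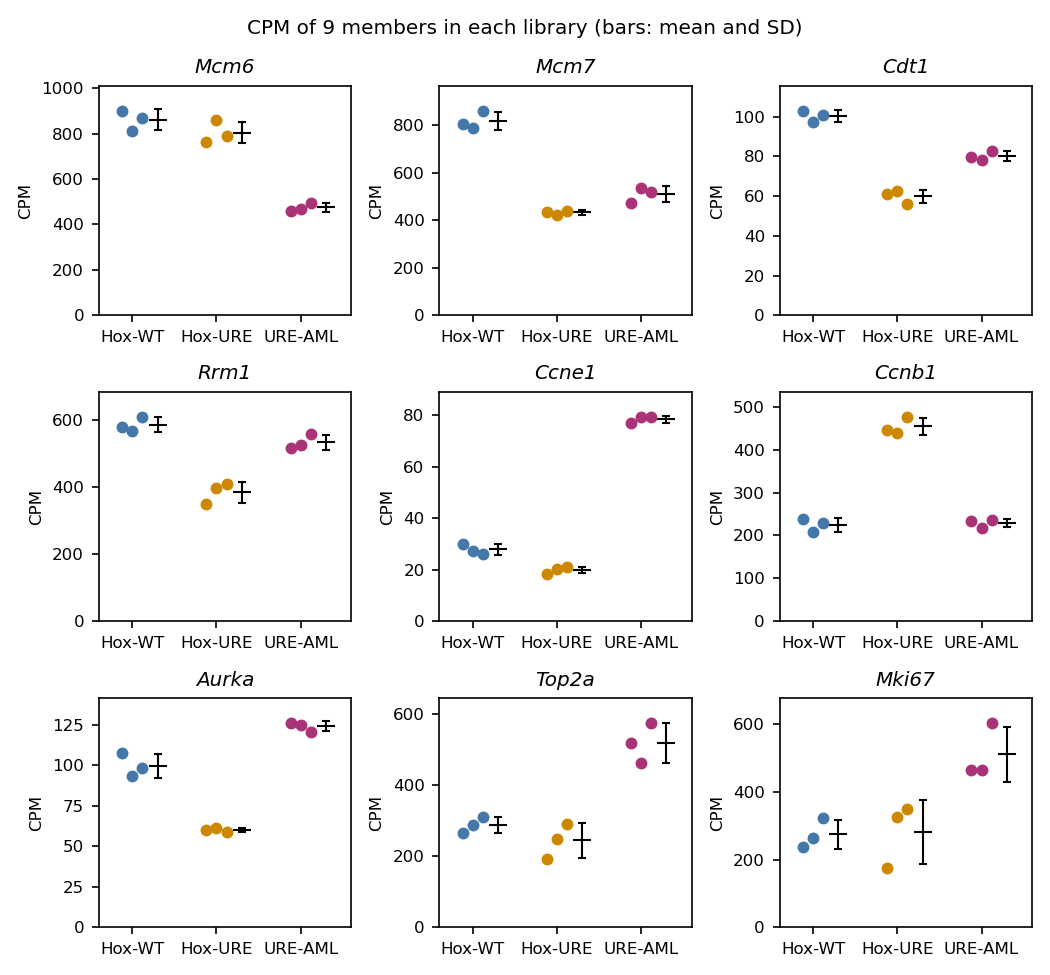
CPM (y axes from 0) of 9 members in the 3 libraries of each line (colored points), with the mean and SD of each line in black. *Mcm6* is lowest in URE-AML, *Mcm7* is lower in both URE-deleted lines than in Hox-WT, *Ccne1* lies at 77.0 to 79.6 CPM in URE-AML, and *Ccnb1* lies at 439 to 477 CPM in Hox-URE.

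Of the 3 cell-cycle transcription factors among the members, 0 were called against Hox-WT and 1 was called higher in URE-AML against Hox-URE (beside 20.3% of all genes). *Foxm1* was at 76.1, 90.8 and 78.6 CPM in Hox-WT, 49.3, 65.1 and 53.3 CPM in Hox-URE and 94.7, 118.5 and 99.6 CPM in URE-AML. The 3 lines did not overlap, and URE-AML was called against Hox-URE (0.90 ± 0.13, edgeR adjusted p = 0.000209). Against Hox-WT the values were -0.55 ± 0.13 in Hox-URE, called without Hox-WT library 1 (-0.60), Hox-WT library 3 (-0.59) or Hox-URE library 2 (-0.68), and 0.35 ± 0.13 in URE-AML.

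*E2f1* had -0.35 ± 0.14 for Hox-URE and -0.54 ± 0.14 for URE-AML against Hox-WT, the latter called without Hox-WT library 3 (-0.61) or URE-AML library 2 (-0.71). *Mybl2*, the gene of B-Myb, had -0.42 ± 0.13 and 0.13 ± 0.13 against Hox-WT. URE-AML against Hox-URE was 0.55 ± 0.13 for *Mybl2*, called without Hox-URE library 1 (0.62) or Hox-URE library 2 (0.59).

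Other genes of the same pathways that are not members were counted in the same way. Of 43 further replication genes, 15 were lower and 0 higher in Hox-URE against Hox-WT (median -0.45), 8 were lower and 1 higher in URE-AML against Hox-WT (median -0.26), and 3 were lower and 6 higher in URE-AML against Hox-URE (median 0.17). The lower share was 34.9% in the first comparison beside 15.9% of all genes, and 18.6% in the second, near the 20.2% of all genes. In the third, the lower share of 6.98% and the higher share (6 of 43) were under the 22.4% and 20.3% of all genes. *Dna2*, a nuclease that trims Okazaki fragments, had -2.02 ± 0.14 in Hox-URE against Hox-WT (edgeR adjusted p = 1.65e-06). *Nasp*, a histone chaperone, was lower in both lines (-0.92 and -0.67), *Chaf1b*, a subunit of chromatin assembly factor 1, was lower in URE-AML (-1.46 ± 0.14), and *Asf1b*, another histone chaperone, was the 1 higher call in URE-AML (1.03 ± 0.10).

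Of 54 further mitosis genes, 5 were lower and 2 higher in Hox-URE against Hox-WT (median -0.19), 3 were lower and 11 higher in URE-AML against Hox-WT (median 0.27), and 2 were lower and 16 higher in URE-AML against Hox-URE (median 0.39). The higher share was 20.4% in the second comparison, near the 23.0% of all genes, and 29.6% in the third beside 20.3%, and the lower share was 9.26% in the first, under the 15.9% of all genes. *Cdc25b*, a phosphatase of Cdk1, was higher in both lines against Hox-WT (1.08 ± 0.11 and 1.49 ± 0.11). *Pttg1*, securin, the inhibitor of sister chromatid separation, was also higher in both (0.68 ± 0.11 and 1.86 ± 0.11). *Kif4*, a chromosome motor, was lower in Hox-URE (-0.96 ± 0.20), and *Cenpk*, a centromere protein, was lower in URE-AML (-1.10 ± 0.15).

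Of 25 E2F, RB and DREAM regulators, 4 were lower and 5 higher in Hox-URE against Hox-WT (median 0.03), 2 were lower and 6 higher in URE-AML against Hox-WT (median 0.12), and 1 was lower and 6 higher in URE-AML against Hox-URE (median 0.08). The shares in the first comparison, 16.0% lower and 20.0% higher, were near those of all genes (15.9% and 21.3%), as was the higher share in the second (6 of 25, beside 23.0%). The lower share in the second (2 of 25) was under the 20.2% of all genes. In the third comparison the higher share (6 of 25) stood beside 20.3% of all genes. The lower share in the third (1 of 25) was under the 22.4% of all genes. Over the 3 further lists, 34 genes were called in either direction there, and 24 without Hox-URE library 1, beside 42.7% of all genes. *E2f2*, an activating E2F, was at 15.5 ± 0.810 CPM in Hox-WT, 28.6 ± 1.91 CPM in Hox-URE and 80.7 ± 21.0 CPM in URE-AML (SD, n = 3), with a log2 fold change of 2.38 ± 0.18 in URE-AML against Hox-WT. The repressive *E2f6* (1.36 ± 0.11 and 1.502 ± 0.11) and *E2f7* (1.28 ± 0.20 and 1.76 ± 0.20) were higher in both lines. *Rb1*, the retinoblastoma gene, was at 17.7 ± 2.56 CPM in Hox-WT, 47.6 ± 8.63 CPM in Hox-URE and 45.1 ± 4.98 CPM in URE-AML (SD, n = 3). *Skp2*, the ubiquitin ligase subunit that clears the Cdk inhibitor p27, was lower in Hox-URE (-1.36 ± 0.12) and URE-AML stood above Hox-URE (1.09 ± 0.12).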

How the data were processed

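Stranded poly-A libraries, 3 for each of 3 lines, were sequenced. Estimated counts were made by the authors with Salmon, summed over the transcripts of a gene with tximport, and deposited as whole numbers without scaling for depth. The release of the transcriptome and any scaling for transcript length are not given in the sources used here. Lines and library numbers came from the sample labels, and all columns were used. The members and gene lists were chosen with earlier results of these data known.

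Genes were kept by filterByExpr (minimum count 10), and a model of line over all 9 libraries was fitted in edgeR 4.0.16 (R 4.3.3) after TMM scaling. Quasi-likelihood F tests were two-sided, p was adjusted by Benjamini-Hochberg over 13082 genes, and calls needed both an adjusted p below 0.05 and more than a 1.5-fold difference. SE is the absolute log2 fold change over the square root of F. The code was tested on simulated data.

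Coordinates and exon lengths came from GENCODE M21 (GRCm38). Promoters came from RefSeq, and 10 members had no entry. Copies were sought with BLAST 2.17.0 (at least 95% identity over 300 bases). Every member could be named, as well as, for each further list and comparison, the called genes of smallest p, up to 3 in either direction, with *Spi1* and *Hoxb8* as checks and the marker genes of other cell types. Alternatives were other scalings, filters, call rules, only the 6 libraries compared, a replicate block, DESeq2 1.42.0 and leaving out each library. Adding pseudogene copies to their members was chosen after seeing the data. Figures were drawn with matplotlib 3.10.9.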

Additional observations from a re-analysis of the deposited data

How the results depend on the processing

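Counts of members called kept within 1.5 times of the reported count under the other scalings and filters, DESeq2, the 6-library fits and the added pseudogene copies. The call rule moved them. By adjusted p alone, members higher, members lower and called genes of the further lists were 3, 26 and 68 for Hox-URE against Hox-WT (reported 1, 12 and 31), 16, 15 and 63 for URE-AML against Hox-WT (7, 8 and 31), and 26, 5 and 69 for URE-AML against Hox-URE (15, 2 and 34). When tested against a fold change of 1.5, members lower and further genes were 5 and 8 in the first comparison, members higher, members lower and further genes were 3, 3 and 14 in the second, and members higher and further genes were 7 and 15 in the third. Leaving out each library in turn gave 1 to 1, 11 to 14 and 29 to 34 in the first, 6 to 8, 6 to 9 and 30 to 33 in the second, and 13 to 18, 2 to 2 and 24 to 38 in the third. With the replicate number as a block the counts were 1, 12 and 32, then 7, 8 and 31, then 15, 2 and 34. Same-numbered libraries correlated at 0.0100 to 0.271, over 0.1 in 2 of 9 pairs. A library correlated best with its own number in 17 of 18 cases, a hint from the data that the labels do not give, so the numbers are not taken as pairs.

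Scaling by library size alone moved the median of all genes by -0.08 in the first comparison and 0.11 in the third, and added calls for *Mcm3*, *Mcm5*, *Ccne1*, *Ccne2* and *Foxm1* in the first and for *Cdc6*, *Ccna2*, *Cdc25c*, *Cenpf* and *Mybl2* in the third. Upper-quartile scaling added *Mcm3* and *Ccne2* in the first and *Bub1* in the second, and lost *Bub1b* there (0.56). With no filter on low counts *Mcm4* was lost in the second (-0.58) and *Ccna2* gained in the third (0.59). Without 1 library, *Tk1* was gained in the second without URE-AML library 1 (0.62) or 2 (0.59). In the third, *Cdc6* was gained without Hox-URE library 3 (0.61) or URE-AML library 1 (0.63), *Ccna2* without Hox-URE library 2 (0.64) or URE-AML library 3 (0.64), *Cdc25c* without Hox-URE library 2 (0.60) and *Cenpf* without Hox-URE library 3 (0.62). No called value changed sign under these alternatives. Log2 fold changes of members with no call did. In the first comparison, library-size scaling gave -0.0891 for *Pole*, -0.0249 for *Rrm2*, -0.0730 for *Ube2c*, -0.0817 for *Cenpf* and -0.0713 for *Mki67*, and upper-quartile scaling gave -0.0091 for *Pole* and -0.0001 for *Cenpf*. Leaving out each library there gave -0.0276 to 0.0779 for *Pole*, -0.1656 to 0.0419 for *Tk1*, -0.0316 to 0.0929 for *Ube2c*, -0.2386 to 0.0078 for *Kif11*, -0.1159 to 0.2279 for *Cenpf* and -0.1463 to 0.2852 for *Mki67*. In the second, upper-quartile scaling gave -0.0058 for *Ccnb1*, no filter gave 0.0009 for *Cdk1*, and leaving out each library gave -0.0255 to 0.0720 for *Ccnb1*, -0.0512 to 0.0183 for *Cdk1* and -0.0676 to 0.0624 for *Kif20a*. In the third, library-size scaling gave 0.0601 for *Mcm3*, and leaving out each library gave -0.2209 to 0.0103 for *Cdc45*. The cause of these changes was not tested.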

Other observations

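The genes beside *Ccne1* and *Ccnb1* were looked at after the values of both had been seen. In URE-AML against Hox-WT, where *Ccne1* stood at 1.49, the 4 other tested genes within 1 Mb had log2 fold changes of -0.12 to 2.44 with a median of 1.16, and the 986 other tested genes of chromosome 7 had a median of 0.00. In URE-AML against Hox-URE, where *Ccne1* stood at 1.98, the same 4 genes had -0.34 to 0.50 with a median of 0.11. In Hox-URE against Hox-WT, where *Ccne1* stood at -0.49, they had -0.05 to 2.16 with a median of 1.08. In that same comparison *Ccnb1* stood at 1.02, and the 19 other tested genes within 1 Mb had -1.24 to 3.64 with a median of 0.45, and the 549 other tested genes of chromosome 13 had a median of -0.04. The same 19 genes had -6.69 to 8.11 with a median of -0.23 in URE-AML against Hox-WT, where *Ccnb1* stood at 0.03. In URE-AML against Hox-URE, where *Ccnb1* stood at -0.99, they had -10.3 to 8.11 with a median of -0.35. No copy number was measured, and the part of the neighbourhood in these levels was not tested.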
